A study of Mus musculus with 64 samples.

Results

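The hippocampal response of WT mice to acute corticosterone (CORT) was examined in 12 of the 64 RNA-seq libraries of the series. They were chosen by the genotype, treatment and cohort in their labels, and come from 6 WT mice injected with CORT (H7 to H12) and 6 WT mice injected with vehicle (H1 to H6). The study set out to learn how UBE3A deficiency, the cause of Angelman syndrome (AS), changes glucocorticoid signaling, and the WT mice were the littermates of its AS mice. Males of 10 to 18 weeks from a cross of C57BL/6J males with 129sv Ube3a m+/p- females received 3 mg/kg CORT under the skin, or 5% ethanol in PBS as vehicle, in the morning. The left hippocampus was collected 3 h later, so each library holds the RNA of all hippocampal cells of 1 mouse at a single time. All mice had been bled from the tail vein some days before, which both groups share. The AS mice of the same cohort, injected with CORT or vehicle, also enter the fit, where they share in the estimate of the spread. WT mice of another cohort, with a CORT or vehicle pellet for 5 days, are set beside the acute mice further below.

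CORT is the main glucocorticoid of rodents and reaches the brain within minutes of its release or injection. In the cell it binds the mineralocorticoid receptor (MR, encoded by Nr3c2) with high affinity and the glucocorticoid receptor (GR, encoded by Nr3c1) with lower affinity. Ligand-bound GR moves to the nucleus, where it binds DNA at glucocorticoid response elements and raises transcription of nearby genes, or lowers transcription through other factors. The hippocampus is rich in both receptors, and GR is also present in astrocytes, microglia, oligodendrocytes and the endothelial cells that form the blood-brain barrier.

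Between 20445418 and 21052967 reads per WT mouse were counted on genes, and levels are given as CPM, the count of a gene scaled to a common library size with TMM factors. A gene with 3 counts was at 0.1425 to 0.1467 CPM in these libraries, a limit for counting error only. Markers of hippocampal neurons were present in every WT mouse, with summed levels of 293 to 890 CPM for 8 dentate granule neuron markers and 822 to 1812 CPM for 6 CA1 neuron markers. Of the 12 mice, 3 stood apart. H8, a CORT mouse, had the highest score on PC1 of the 12 libraries (11.9, against -10.5 to 3.22 in the others), the highest summed dentate granule neuron markers (890 CPM) and the lowest summed oligodendrocyte markers (2327 CPM, against 3212 to 6989). H6, a vehicle mouse, had the lowest PC1 score, and its summed choroid plexus markers were 1636 CPM against 86.6 to 221 CPM in the other 11. H11, a CORT mouse, had the highest PC3 score (6.56), and its sums were 168 CPM for thalamus markers, against 60.3 to 86.3 CPM in the other 11, and 212 CPM for fibroblast and meningeal markers, against 111 to 161 CPM. PC2 separated the groups, with scores of -7.20 to -1.56 in vehicle mice and 1.27 to 4.36 in CORT mice. HTSeq-count's reads of low alignment quality divide the acute cohort, and all WT libraries lie on the same side of this division.

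Acute CORT altered 216 of 14611 genes tested (1.48%), of which 155 rose (1.06%) and 61 fell (0.417%). Altered, raised and lowered refer throughout to a Benjamini-Hochberg adjusted p under 0.05 from the quasi-likelihood test of edgeR. The changes were moderate: the median log2 fold change was 0.52 among raised and -0.48 among lowered genes, and 22 genes rose and 3 fell at least 2-fold. Raised genes reached 2.84 (Lao1) and lowered genes -1.34 (Insc) on the log2 scale. The CPM ranges of the groups did not overlap for 98 of the 155 raised and 29 of the 61 lowered genes, and for 1.22% of all genes tested. Without H8, 241 genes were altered (187 raised, 54 lowered), 187 of which were altered with it. Without H6, 207 genes were altered (151 raised, 56 lowered), and without H11, 190 (136 raised, 54 lowered). With the 12 WT libraries alone in the fit the count was 132, and the lowered genes numbered 40 without the vehicle mouse H4.

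**Figure D1:**
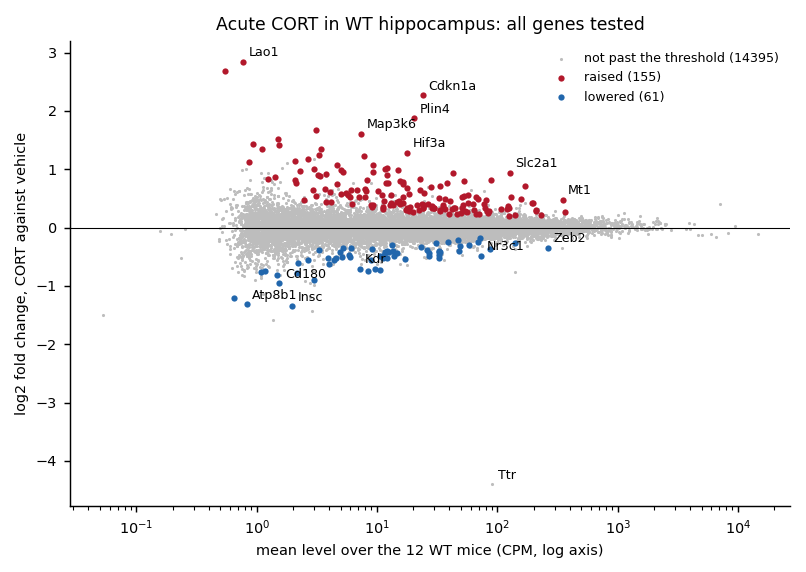
Log2 fold change of CORT against vehicle (vertical axis) over the mean level of the 12 WT mice in CPM (horizontal log axis) for each of the 14611 genes tested. Red points are the 155 raised and blue points the 61 lowered genes, and Ttr, the grey point at -4.40, did not pass the threshold.

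The 54 lists were chosen with earlier results of these data known, so their shares are not independent of these data. The classical glucocorticoid targets held the most raised genes of any list. This list held 46 tested genes that are raised by glucocorticoids in many tissues, and 18 of them rose (39.1%, against 1.06% of all genes) while 0 fell (20 and 0 without H8). The median log2 fold change of the list was 0.26, against -0.0023 over all genes tested. Besides Fkbp5 and Tsc22d3 the raised members were Cdkn1a, Sult1a1, Map3k6, Hif3a, Mt2, Arrdc2, Plin4, Mertk, Plekhf1, Zbtb16, Bcl2l1, Mt1, Klf15, Dio2, Fam107a and Angptl4. Cdkn1a (ENSMUSG00000023067, GRCm38 chr17:29090976-29100727) encodes p21, an inhibitor of cyclin-dependent kinases. Its level was 5.06 to 14.2 CPM in vehicle mice (median 7.53) and 29.8 to 64.5 CPM in CORT mice (median 36.0). The groups were far apart, and the increase, 2.27 on the log2 scale (standard error 0.21, adjusted p = 1.32e-07), was the highest of the list. Map3k6, a stress-activated kinase of the MAP kinase cascade, ranged from 2.23 to 4.95 CPM with vehicle and from 10.0 to 12.5 CPM with CORT, and rose by 1.61 (standard error 0.15, adjusted p = 1.63e-07). Hif3a, a member of the hypoxia-inducible factor family that lacks much of the activating capacity of its relatives, ranged from 6.77 to 12.1 CPM with vehicle and from 17.9 to 28.6 CPM with CORT (log2 fold change 1.28, standard error 0.15, adjusted p = 4.04e-06). The lowest CORT value of Hif3a was that of H8, and no CORT mouse reached down to the vehicle range.

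Several well-known targets did not pass the threshold at this time. Sgk1, a kinase that regulates ion transport, was 48.8 to 87.3 CPM in vehicle mice and 59.8 to 133 CPM in CORT mice, and its value was 0.63 on the log2 scale (standard error 0.19, adjusted p = 0.114). H8 was the lowest CORT mouse, and without it Sgk1 passed the threshold (0.73, adjusted p = 0.0311). The clock gene Per1 was 86.8 to 112 CPM with vehicle and 105 to 143 CPM with CORT (0.26, standard error 0.09, adjusted p = 0.239). The groups overlapped for both genes. Nfkbia, the inhibitor of NF-kB, and Errfi1, a brake on EGF receptor signaling, had values of 0.38 (adjusted p = 0.0685) and 0.25 (adjusted p = 0.190). The groups did not overlap for Nfkbia, with 20.1 to 25.2 CPM against 25.8 to 32.7 CPM.

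Promoters of altered genes were searched for the letters of the glucocorticoid response element, since response elements near raised genes are a known feature of this receptor. RefSeq promoters of GRCm38.p6, each from 250 bases before to 50 after a start, were found for 129 of the 155 raised, 41 of the 61 lowered and 11006 of the 14611 tested genes. The palindrome GNACANNNTGTNC, which reads the same on both strands, was found in 6 of 170 promoters of raised genes (3.53%), in 0 of 56 promoters of lowered genes and in 48 of 14109 promoters of tested genes (0.34%). It was found in 0.475% of all 32851 promoters in the table. Half-sites (AGAACA on either strand, which can overlap the palindrome) were found in 12.4% of promoters of raised, 7.14% of lowered and 12.6% of tested genes. A match is a description of the letters and not a site of binding. The 6 promoters belong to 5 genes, of which Map3k6 and Mt1 were named by the rule for named genes and Tinagl1, Fam107a and Serpina3n are shown because they hold the match. The 250 bases before the start are given 5′ to 3′ on the strand of the gene, with the palindrome in capitals. They lie at chr4:133240568-133240817 (Map3k6, plus strand), chr4:130174803-130175052 (Tinagl1, minus strand), chr8:94178839-94179088 (Mt1, plus strand), chr14:8309780-8310029 (Fam107a, minus strand, the other start of which is shifted by 2 bases) and chr12:104406458-104406707 (Serpina3n, plus strand).
Map3k6: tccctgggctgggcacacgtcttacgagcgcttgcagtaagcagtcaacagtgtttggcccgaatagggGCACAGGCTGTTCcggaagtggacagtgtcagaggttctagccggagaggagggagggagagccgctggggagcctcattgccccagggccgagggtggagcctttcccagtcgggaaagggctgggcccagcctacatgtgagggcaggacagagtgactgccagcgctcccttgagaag
Tinagl1: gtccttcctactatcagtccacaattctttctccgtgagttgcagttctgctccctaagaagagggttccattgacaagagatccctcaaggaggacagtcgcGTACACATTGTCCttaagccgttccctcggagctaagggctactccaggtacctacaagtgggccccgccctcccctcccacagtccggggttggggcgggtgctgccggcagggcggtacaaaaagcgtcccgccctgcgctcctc
Mt1: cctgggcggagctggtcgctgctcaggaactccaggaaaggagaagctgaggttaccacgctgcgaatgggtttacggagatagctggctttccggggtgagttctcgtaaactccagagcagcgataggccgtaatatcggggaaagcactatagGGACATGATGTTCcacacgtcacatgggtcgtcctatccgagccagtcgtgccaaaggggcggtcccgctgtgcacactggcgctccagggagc
Fam107a: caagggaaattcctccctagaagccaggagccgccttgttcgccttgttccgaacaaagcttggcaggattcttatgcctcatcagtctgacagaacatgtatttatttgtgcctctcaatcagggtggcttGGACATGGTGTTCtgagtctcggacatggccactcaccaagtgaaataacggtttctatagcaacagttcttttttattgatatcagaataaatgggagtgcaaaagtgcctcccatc
Serpina3n: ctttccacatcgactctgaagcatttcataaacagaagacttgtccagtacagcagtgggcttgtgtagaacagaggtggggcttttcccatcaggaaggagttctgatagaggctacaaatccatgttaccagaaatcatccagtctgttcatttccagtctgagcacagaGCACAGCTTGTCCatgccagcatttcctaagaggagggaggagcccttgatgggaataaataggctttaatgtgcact

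The first base of the match lay 181 bases before the start of Map3k6, 147 before that of Tinagl1, 94 before that of Mt1, 118 before that of Fam107a and 78 before that of Serpina3n. Tinagl1, which encodes a secreted basement membrane protein, rose from 6.56 to 11.2 CPM in vehicle mice to 13 to 19.9 CPM in CORT mice (log2 fold change 0.77, standard error 0.12, adjusted p = 0.000186). Fam107a, an actin-binding stress protein of astrocytes and neurons, ranged from 319 to 351 CPM with vehicle and from 355 to 457 CPM with CORT (0.27, standard error 0.06, adjusted p = 0.0177). For both genes the groups did not overlap. Serpina3n, a protease inhibitor of reactive astrocytes, ranged from 175 to 205 CPM with vehicle and from 198 to 270 CPM with CORT (0.28, adjusted p = 0.0350), and did not pass the threshold without H8 (0.23, adjusted p = 0.0812).

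Among the 20 raised genes with the smallest p, 10 belonged to no list. Cmtm3, a chemokine-like membrane protein, rose from 6.73 to 8.90 CPM to 14.6 to 17.6 CPM (log2 fold change 1.02, standard error 0.08, adjusted p = 7.14e-09). Frmpd1, a scaffold protein of G protein signaling, rose from 17 to 18.5 CPM to 23.9 to 29.98 CPM (0.65, standard error 0.05, adjusted p = 1.35e-08). Nrros, which holds latent TGF-beta on the surface of microglia and macrophages, rose from 7.23 to 8.70 CPM to 13.7 to 17.7 CPM (1.0, standard error 0.08, adjusted p = 1.35e-08). For all 3 genes every CORT mouse lay above every vehicle mouse. Klhdc7a (0.70), Ptgfrn, a tetraspanin partner that restrains the prostaglandin F receptor (0.74), the heparan sulfate proteoglycan Sdc4 (0.55), the melanosome transport adaptor Mlph (1.24) and the purine-oxidizing enzyme Xdh (0.90) also rose without overlap between the groups. Lao1, an amino acid oxidase, had the largest fold change and a low level, with 0.0957 to 0.435 CPM in vehicle mice and 0.868 to 1.74 CPM in CORT mice (2.84, standard error 0.28, adjusted p = 3.20e-07). In the vehicle mice H3, H4, H5 and H6 its level was 0.0957 to 0.147 CPM, at or near that of 3 counts, so its fold change depends on how low counts are treated. Among genes in no list, the long noncoding RNA Gm11827 (2.68) and the secreted phospholipase Pla2g3 (1.67) followed. Pla2g3 overlaps Inpp5j, an inositol phosphatase gene on the opposite strand that also rose (0.48, adjusted p = 0.00334), and whether counting used strand is not given in the sources used here.

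**Figure D2:**
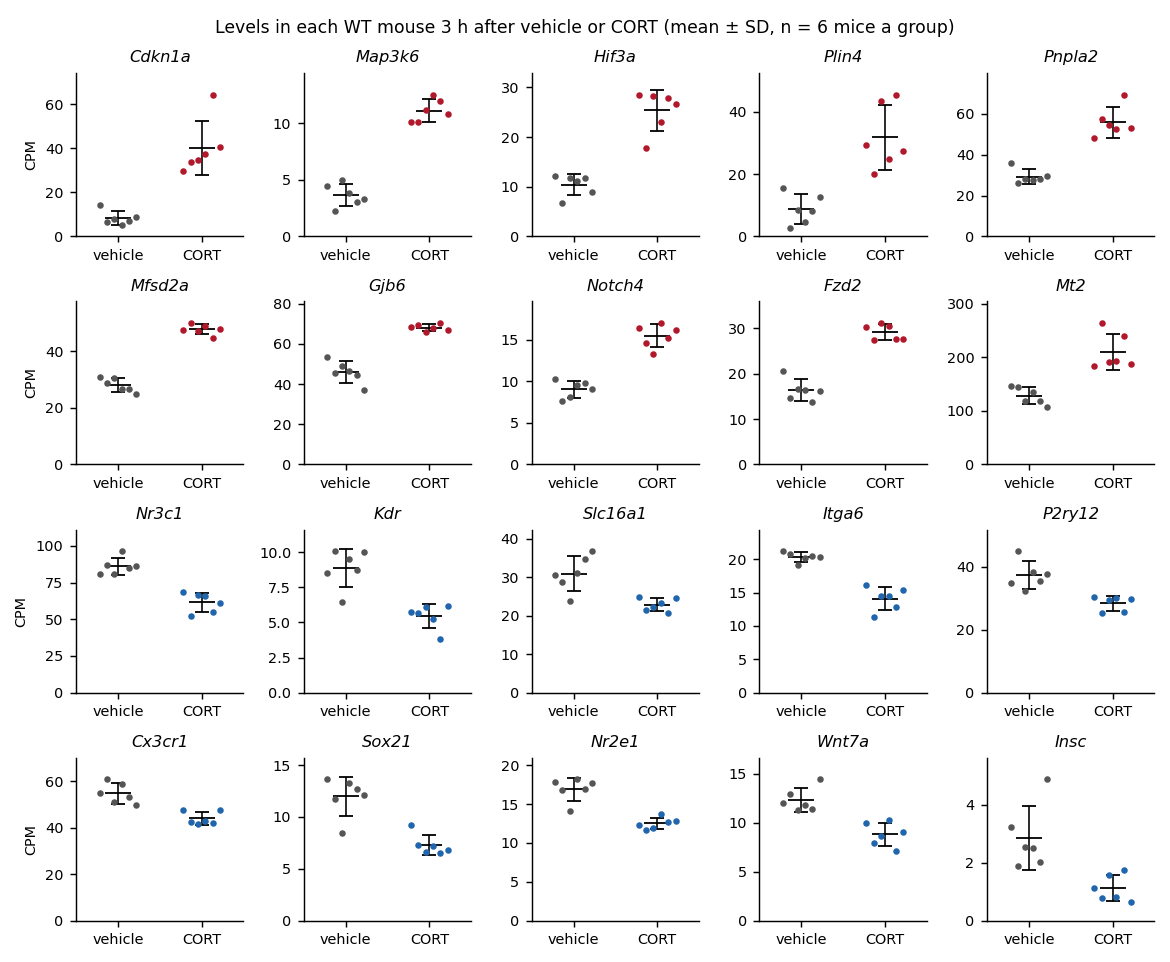
Levels in CPM of 20 altered genes in each WT mouse (points), with the mean and SD of the 6 mice of a group (black) and every axis starting at 0. Raised genes are red and lowered genes blue, and for Sox21 and Slc16a1 the groups overlap, while for the others they do not, and the CORT mice of Cdkn1a lie between 29.8 and 64.5 CPM.

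Genes of the blood-brain barrier changed in both directions. Among 27 endothelial markers 2 rose and 1 fell (7.41% and 3.70%, against 1.06% and 0.417% of all genes), with a median log2 fold change of -0.06, and among 30 genes of barrier junctions and transport 2 rose and 1 fell (6.67% and 3.33%), with a median of -0.08 (-0.04 without H8). These counts were the same without H8, while 2 endothelial markers fell without H7 or H3, and 2 and 3 barrier genes fell without H7 and H3. Mfsd2a, the endothelial carrier of docosahexaenoic acid that limits transcytosis, was 24.7 to 31.0 CPM (median 27.7) with vehicle and 44.8 to 50.1 CPM (median 47.7) with CORT. It rose by 0.77 (standard error 0.08, adjusted p = 2.69e-07) without overlap, next to the glucose transporter Slc2a1 (0.94, standard error 0.07, adjusted p = 3.78e-09). Slc16a1 (ENSMUSG00000032902, GRCm38 chr3:104638668-104658462) encodes the lactate and ketone transporter MCT1 and went the other way. Its level was 23.9 to 36.9 CPM with vehicle and 20.6 to 25 CPM with CORT, so the groups overlapped, and it fell by 0.44 (standard error 0.08, adjusted p = 0.00245). Kdr, the main VEGF receptor of endothelial cells, was 6.44 to 10.1 CPM with vehicle and 3.81 to 6.15 CPM with CORT, and it fell by 0.71 (standard error 0.13, adjusted p = 0.00296) without overlap. Ly6c1, a surface protein of brain endothelium, rose by 0.40 (adjusted p = 0.0119). It was lost with only the WT libraries in the fit (adjusted p = 0.0989), which leaves 1 raised endothelial marker. The junction genes Cldn5 (-0.05, adjusted p = 0.923) and Ocln (-0.09, adjusted p = 0.860) and the pan-endothelial marker Pecam1 (-0.02, adjusted p = 0.965) did not pass the threshold. The summed level of the 27 endothelial markers was 404 to 568.1 CPM with vehicle and 464 to 580 CPM with CORT.

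A few genes of vessels and matrix passed the threshold. Notch4, a Notch receptor of endothelial cells, was 7.6 to 10.3 CPM with vehicle and 13.3 to 17.1 CPM with CORT, and rose by 0.77 (standard error 0.11, adjusted p = 5.12e-05). Among 21 genes of VEGF and angiopoietin signaling 1 rose (Ramp2, a subunit of the adrenomedullin receptor, 0.35, adjusted p = 0.0303) and 2 fell (Kdr and S1pr1, a sphingosine 1-phosphate receptor, -0.26, adjusted p = 0.0362), which is 4.76% and 9.52% of the list against 1.06% and 0.417% of all genes. The calls of both depended on single mice. Ramp2 was lost without H2, H3, H5, H6, H10, H11 or H12 and S1pr1 without H1, H2, H4, H5, H8, H9, H10, H11 or H12, with adjusted p of up to 0.0848 for Ramp2 and 0.103 for S1pr1, and both were lost with only the WT libraries in the fit (0.0710 and 0.0538). In the list of extracellular matrix and adhesion, 2 of 48 genes rose, Timp4 (0.34, adjusted p = 0.00334) and the basement membrane collagen Col4a1 (0.40, adjusted p = 0.0110), and 1 fell (4.17% and 2.08%, against 1.06% and 0.417% of all genes). With only the WT libraries in the fit Col4a1 was lost (adjusted p = 0.0989). Without H8, 5 rose and 1 fell, and without H11, 2 fell. The lowered gene, Itga6, encodes a laminin-binding integrin. It ranged from 19.1 to 21.3 CPM with vehicle and from 11.4 to 16.1 CPM with CORT, did not overlap, and fell by 0.53 (standard error 0.08, adjusted p = 7.50e-05). Timp4, an inhibitor of matrix proteases, lies within the Syn2 gene on the opposite strand, and the annotation of Col4a1 overlaps that of Col4a2 on the opposite strand.

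Astrocyte markers were the cell class with the most raised genes. Of 20 tested, 6 rose (30%, against 1.06% of all genes) and 0 fell, with and without H8, and the median log2 fold change was 0.09. Without the vehicle mouse H2, 3 rose, and without H7, 5 rose and 1 fell. Gjb6, which encodes the astrocytic gap junction protein connexin 30, was 36.9 to 53.5 CPM with vehicle and 65.8 to 70.6 CPM with CORT. It rose by 0.56 (standard error 0.08, adjusted p = 0.000149), and its CORT mice were closer together than its vehicle mice. Agt, the angiotensin precursor made by astrocytes, was 14.9 to 21.5 CPM with vehicle and 25.3 to 38.8 CPM with CORT (0.59, standard error 0.12, adjusted p = 0.00426). The secreted protease Htra1 (0.42), the growth factor receptor Fgfr3 (0.32), the folate enzyme Aldh1l1 (0.23) and the ethanolamine-phosphate lyase Etnppl (0.65) were the other raised markers. The call of Etnppl was lost without H2, H4, H9, H11 or H12 (adjusted p of up to 0.0963) and with only the WT libraries (0.142), and Htra1 lies within the annotated span of Fgfr2 on the opposite strand. The water channel Aqp4 (-0.22, adjusted p = 0.171), the glutamate transporter Slc1a2 (-0.03, adjusted p = 0.942) and Gfap (0.0025, adjusted p = 0.995) did not pass the threshold. The summed astrocyte markers were 6282 to 7067 CPM with vehicle and 6566 to 7564 CPM with CORT, so the sums overlapped. In bulk tissue, a change in the number of cells of a type and a change in RNA per cell cannot be told apart.

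Microglial surface receptors were among the lowered genes. Of 20 microglia markers, 2 fell (10%, against 0.417% of all genes) and 0 rose, with and without H8, and the median log2 fold change was -0.02 (-0.04 without H8). P2ry12, the ADP receptor that directs microglial processes to injury, was 32.4 to 45.1 CPM with vehicle and 25.2 to 30.4 CPM with CORT, and fell by 0.40 (standard error 0.08, adjusted p = 0.00510). Cx3cr1, the fractalkine receptor through which neurons restrain microglia, was 49.6 to 60.9 CPM with vehicle and 41.6 to 47.5 CPM with CORT, and fell by 0.32 (standard error 0.07, adjusted p = 0.0106). The groups did not overlap for either gene. The microglial genes Csf1r (0.08, adjusted p = 0.706) and Tmem119 (0.05, adjusted p = 0.899) did not pass the threshold. Its summed level was 543 to 672 CPM with vehicle and 575 to 669 CPM with CORT. Outside the list, Cd180, a Toll-like receptor relative of B cells and myeloid cells, fell by 0.95 (standard error 0.17, adjusted p = 0.00198), with 1.53 to 2.51 CPM against 0.784 to 1.59 CPM and some overlap. P2ry12 and Cd180 overlap genes on the opposite strand (Med12l and Mast4), and the annotated span of Cx3cr1 overlaps Wdr48 on the opposite and Gorasp1 and Csrnp1 on the same strand, and the part of these genes in the counts was not tested. Nrros, which is also expressed by microglia, rose as given above.

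Of 54 markers of dentate granule, CA1, CA2, CA3, immature and inhibitory neurons, 0 were called by edgeR's quasi-likelihood test (against 1.48% of all genes) and 0 by the Wald test of DESeq2, 1 was called by limma-voom, and 8 (14.8%) had an unadjusted p under 0.05, against 10.7% of all genes tested. Their median log2 fold change was -0.07, and the classes lay apart, with all 6 CA2 markers above 0 (median 0.38) and 0 of 6 CA1 markers above 0 (median -0.29). Medians of the other classes were -0.11 for dentate granule neurons (-0.31 without H8), 0.12 for CA3 neurons (0.07 without H8), -0.03 for interneurons and -0.16 for immature neurons. Without H6, 1 CA2 marker rose, and without H10, 1 interneuron marker fell. The CA2 marker Amigo2 came closest, with 8.78 to 34.3 CPM in vehicle mice, 29.8 to 35.9 CPM in CORT mice and a value of 0.69 (standard error 0.19, adjusted p = 0.0741). The granule cell marker Prox1 was at -0.19 (adjusted p = 0.810), the interneuron marker Ndnf at -0.33 (adjusted p = 0.267) and Dcx, a marker of young neurons, at -0.23 (adjusted p = 0.437). Summed dentate granule neuron markers were 293 to 753 CPM with vehicle and 389 to 890 CPM with CORT, the latter being H8.

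Across 225 genes of glutamate, GABA and neuromodulator receptors, potassium, sodium and calcium channels, neuropeptides and neurotrophins, and synaptic vesicle release, 0 were called by edgeR (against 1.48% of all genes) or DESeq2, 1 by limma-voom, and 12 (5.33%, against 10.7% of all genes) had an unadjusted p under 0.05. Their median log2 fold change was -0.03 (0.016 without H8). Without H8, 1 neuromodulator receptor rose. The potassium channel subunit Kcns2 was at -0.22 (adjusted p = 0.245), the glutamate receptor Grm3 at -0.13 (adjusted p = 0.540) and the vesicle fusion protein Cplx1 at 0.17 (adjusted p = 0.506).

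The remaining cell classes had 0 altered markers by edgeR, against 1.48% of all genes. Oligodendrocyte markers had a median of -0.19 (-0.08 without H8, the mouse with the lowest sum, 18 tested, 4 with an unadjusted p under 0.05, 0 by DESeq2 or limma-voom), with Opalin at -0.63 (adjusted p = 0.234), and their sum was 3212 to 6763 CPM with vehicle and 2327 to 6989 CPM with CORT. Oligodendrocyte precursor (12 tested), mural cell (13) and fibroblast and meningeal markers (14) had medians of 0.06 (0.10 without H8), 0.08 and 0.19, with 1, 2 and 2 unadjusted p under 0.05 and 0 calls by the other tools. Of 17 choroid plexus markers 5 were tested, with a median of -0.75, 0 above 0 and 4 with an unadjusted p under 0.05, and 1 fell when H1, H2 or H5 was left out. Ttr, the transthyretin carrier, was 973 CPM in H6 and at most 26.9 CPM in the CORT mice (-4.40, adjusted p = 0.0813), and DESeq2 called 1 of the 5. The summed level of 6 blood markers was 92.5 to 184 CPM with CORT and 51.2 to 148 CPM with vehicle. The 5 blood markers that were tested had a median of 0.55. Of these, 0 passed the threshold by any of the 3 tools, although 2 had an unadjusted p under 0.05. Without H6, 1 blood marker rose. Thalamus, striatum, neocortex and ependymal markers had medians of 0.36, -0.10, -0.11 (-0.24 without H8) and -0.35. They also had 0 calls by the 3 tools, with 4, 2, 0 and 1 unadjusted p under 0.05. In these remaining classes the share with an unadjusted p under 0.05 ran from 0% (neocortex) to 80% (choroid plexus), against 10.7% of all genes tested. It was 44.4% for thalamus and 40% for blood. The thalamus and the fibroblast and meningeal values include H11, whose sums of these markers stood apart. The part of blood and choroid plexus RNA in the changes above was not tested.

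**Figure D3:**
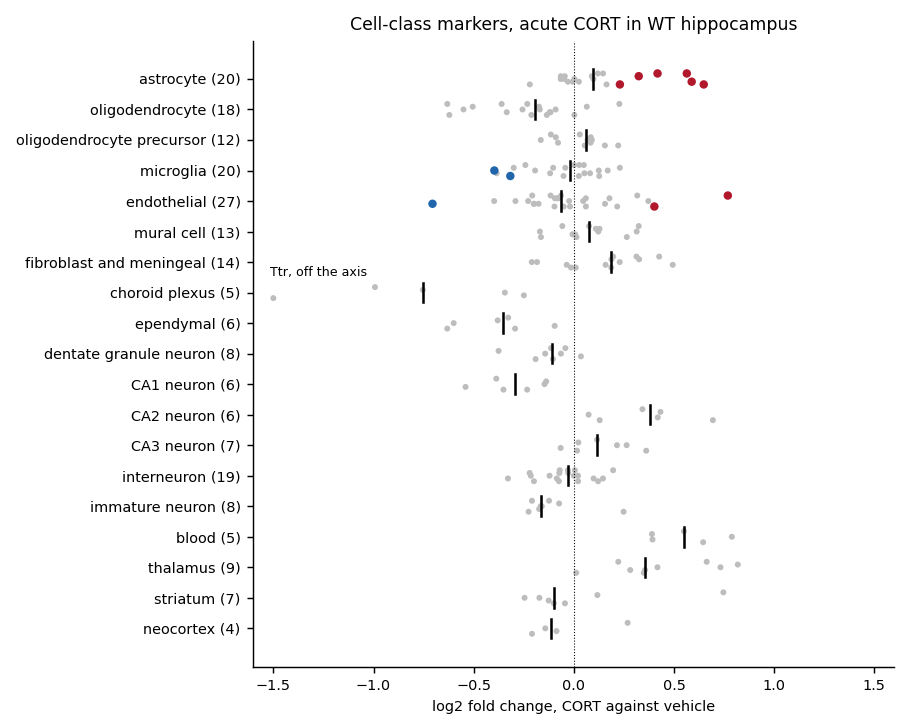
Log2 fold change of CORT against vehicle for each tested marker (points) of 19 cell classes and neighboring tissues, with the number tested in parentheses and the median as a black bar. Raised markers are red (6 of astrocytes, 2 of endothelium) and lowered markers blue (2 of microglia, 1 of endothelium), grey points did not pass the threshold, and Ttr is drawn at the edge of the axis.

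Of 37 tested genes of lipid droplets and fatty acids 4 rose (10.8%, against 1.06% of all genes) and 0 fell, with and without H8. The other 33 did not pass the threshold, and the median was 0.03 (0.05 without H8). Plin4, a coat protein of lipid droplets, was 2.76 to 15.6 CPM with vehicle and 20.02 to 45.6 CPM with CORT (log2 fold change 1.88, standard error 0.30, adjusted p = 0.000385). Pnpla2, the lipase that starts the breakdown of stored triglyceride, was 25.9 to 36.1 CPM with vehicle and 48.0 to 69.5 CPM with CORT (0.94, standard error 0.11, adjusted p = 5.14e-06). Neither gene overlapped between the groups. Lipe, the hormone-sensitive lipase of the next step, rose by 0.38 (adjusted p = 0.0114, and 0.0977 with only the WT libraries in the fit), and Angptl4, a secreted inhibitor of lipoprotein lipase, by 0.77 (adjusted p = 0.0354). The call of Angptl4 was lost without H1, H2, H3, H4, H6, H7, H9, H10 or H12 (adjusted p of up to 0.0938), and Plin4 overlaps Hdgfl2 on the opposite strand. Of 23 genes of cholesterol synthesis and uptake 0 were called by the 3 tools. Of these, 2 had an unadjusted p under 0.05 (8.7%, against 10.7% of all genes). Their median was 0.03 (0.06 without H8), with Msmo1 at 0.15 (adjusted p = 0.412).

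Among 35 gene IDs of glucose and lactate handling, Slc2a1 and Pfkfb4 rose and Slc16a1 fell (5.71% and 2.86%, against 1.06% and 0.417% of all genes), and 4 rose and 1 fell without H8. Pfkfb4, an enzyme that controls a sugar phosphate that activates glycolysis, was 8.41 to 11.1 CPM with vehicle and 11.8 to 14.5 CPM with CORT (0.36, standard error 0.08, adjusted p = 0.0139) without overlap, and it was lost with only the WT libraries in the fit (adjusted p = 0.0825). The median of the list was 0.08. In the list of insulin, FOXO and mTOR signaling, 1 of 35 rose and 1 fell, 2.86% each way (3 and 1 without H8, 2 and 1 without H3). The serum- and glucocorticoid-inducible kinase Sgk3 rose by 0.81 (standard error 0.14, adjusted p = 0.00141), from 5.07 to 7.04 CPM to 6.61 to 13.8 CPM with some overlap. Ddit4l, an inhibitor of mTOR, fell by 0.53 (adjusted p = 0.00993, and 0.0713 with only the WT libraries). Metallothioneins Mt1 and Mt2, which bind zinc and are induced by glucocorticoids in many tissues, rose by 0.48 (adjusted p = 0.00503, and 0.0568 with only the WT libraries for Mt1) and 0.71 (adjusted p = 4.83e-05), and 0 of the other 11 genes of metal binding and zinc transport were altered, so that 15.4% of this list rose. Smox, the spermine oxidase, was the 1 raised gene of 11 of polyamine metabolism (9.09%, against 1.06% of all genes; log2 fold change 0.32, adjusted p = 0.0198), and was lost without H3 or H11 (adjusted p of up to 0.0607) and with only the WT libraries (0.0650).

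In the list of cell cycle arrest and survival, 3 of 27 rose (Cdkn1a, Mxd4 and Bcl2l1; 11.1%, against 1.06% of all genes) and 1 fell (Ccnd1; 3.70%, against 0.417%), with a median of 0.02 (0.01 without H8). Mxd4, an antagonist of the transcription factor MYC, was 95.6 to 121 CPM with vehicle and 140 to 170 CPM with CORT (0.53, standard error 0.07, adjusted p = 9.35e-06). Bcl2l1, which encodes the survival protein BCL-XL, was 103 to 119 CPM with vehicle and 121 to 160 CPM with CORT (0.34, standard error 0.07, adjusted p = 0.00406). Ccnd1, the cyclin that opens the G1 phase, was 33.3 to 52.9 CPM with vehicle and 24.1 to 30.3 CPM with CORT, and fell by 0.42 (standard error 0.10, adjusted p = 0.0202). The highest vehicle value of Ccnd1 was that of H4, and the call was lost without H4, H8 or H12 (adjusted p of up to 0.0521) and with only the WT libraries (0.0836). Without H2 or H7, 2 genes of the list fell.

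Of 41 Wnt genes 3 rose (7.32%, against 1.06% of all genes), all of them receptors or coreceptors (Fzd2, Fzd4 and Lrp5), and 2 fell (4.88%, against 0.417%), both of them secreted (the ligand Wnt7a and the potentiator Rspo3), and the counts were the same without H8. Fzd2 was 13.7 to 20.6 CPM with vehicle and 27.4 to 31.3 CPM with CORT (0.83, standard error 0.10, adjusted p = 4.74e-06). Wnt7a, a Wnt ligand of astrocytes and progenitors, was 11.3 to 14.5 CPM with vehicle and 7.09 to 10.3 CPM with CORT, and fell by 0.48 (standard error 0.10, adjusted p = 0.00901). Neither gene overlapped between the groups. The values of the other 3 were 0.41 for Fzd4 (adjusted p = 0.0225), 0.28 for Lrp5 (adjusted p = 0.0433) and -0.55 for Rspo3 (adjusted p = 0.0138), and without H3, H7, H9, H10 or H12, 1 Wnt gene rose. Fzd4 was lost without any of these or H4 (adjusted p of up to 0.0834). Lgr4, the receptor of R-spondins, also fell, from 27.3 to 31.6 CPM to 19.4 to 25.4 CPM (-0.38, standard error 0.07, adjusted p = 0.00312). Wnt11, a ligand that is not in the list and was named after its value was seen, fell as well (-0.78, standard error 0.20, adjusted p = 0.0350), though not past the threshold without H8 (adjusted p = 0.0562). With only the WT libraries in the fit Fzd4 (adjusted p = 0.122) and Rspo3 (0.0918) were lost. The Wnt target Axin2 was at -0.06 (adjusted p = 0.850). Of 24 Notch genes Notch4 and Lfng rose (8.33%, against 1.06% of all genes) and 0 fell. Lfng, the enzyme that adds sugar to Notch receptors, was 13.7 to 16.7 CPM with vehicle and 18.8 to 24.4 CPM with CORT (0.57, standard error 0.08, adjusted p = 5.39e-05), while the Notch target Hes1 was at 0.08 (adjusted p = 0.885).

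Sox21, Nr2e1 and Insc were among the lowered genes that belong to no list. Sox21, which restrains stem cell maintenance, was 8.46 to 13.7 CPM with vehicle and 6.56 to 9.21 CPM with CORT, and fell by 0.71 (standard error 0.13, adjusted p = 0.00143). Nr2e1 (TLX), a nuclear receptor that keeps adult neural stem cells dividing, was 14.1 to 18.2 CPM with vehicle and 11.7 to 13.7 CPM with CORT, and fell by 0.43 (standard error 0.08, adjusted p = 0.00249). Insc, an adaptor that orients the spindle of dividing progenitors, was 1.89 to 4.89 CPM with vehicle and 0.650 to 1.74 CPM with CORT, and fell by 1.34 (standard error 0.23, adjusted p = 0.000984). The groups overlapped for Sox21 because of H3, the lowest vehicle mouse, and H7, the highest CORT mouse, and did not overlap for Nr2e1 or Insc. Sox2 (-0.47, adjusted p = 0.0161), Pax6 (-0.36, adjusted p = 0.0151) and Gli3 (-0.48, adjusted p = 0.0129), named after their values were seen, fell too, and how many genes of neural progenitors did not fall was not counted. The immature neuron markers Dcx, given above, and Sox4 (-0.21, adjusted p = 0.333) did not pass the threshold.

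Other lowered genes with the smallest p were 2810459M11Rik (-0.73), the matrix protein Frem2 (-0.90), the axon guidance ligand Sema6d (-0.37), Plekho2 (-0.53), the G protein regulator Rgs20 (-0.39) and the immune cell exchange factor Dock8 (-0.51). The lipid flippase Atp8b1 (-1.32) and Fam181a (-1.21) completed the 5 lowered genes with the largest changes, beside Insc, Cd180 and Frem2. Atp8b1 was 0.577 to 1.81 CPM with vehicle and 0.193 to 0.784 CPM with CORT, and the groups overlapped. Its call was lost with only the WT libraries (adjusted p = 0.0538). Fam181a was 0.579 to 1.47 CPM with vehicle and 0.238 to 0.489 CPM with CORT without overlap.

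The RNA of GR was lowered, while that of MR did not pass the threshold. Nr3c1 was 80.7 to 96.6 CPM (median 85.5) with vehicle and 52.0 to 68.6 CPM (median 63.4) with CORT, did not overlap, and fell by 0.48 (standard error 0.07, adjusted p = 3.62e-05). The lowest value was that of H8, without which it fell by 0.44 (adjusted p = 8.07e-05). Nr3c2 was 221 to 288 CPM with vehicle and 189 to 240 CPM with CORT (-0.21, standard error 0.07, adjusted p = 0.257). Of the 21 receptors, chaperones and coregulators tested, 1 (Nr3c1) fell (4.76%, against 0.417% of all genes) and 0 rose, with a median of -0.03.

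Of 23 clock genes 0 were called by edgeR or DESeq2, against 1.48% of all genes by edgeR, 1 was called by limma-voom and 1 by edgeR without H8, and 6 (26.1%) had an unadjusted p under 0.05, against 10.7% of all genes, with Arntl at -0.22 (adjusted p = 0.289). Of 37 immediate early genes 1 rose (2.7%, against 1.06% of all genes), the small MAF factor Maff (1.12, standard error 0.24, adjusted p = 0.0126), and the median was -0.06. Without H1, 2 rose, and without H7, 1 rose and 1 fell. In the lists of MAPK phosphatases and Sprouty proteins (17 tested), TGF-beta and BMP signaling (42), amino acid transport (27), heat shock proteins (25), and interferon response and MHC (21), 0 genes were called by edgeR, DESeq2 or limma-voom, with 2, 9, 4, 0 and 3 unadjusted p under 0.05, and 1 amino acid transporter rose without H1. The list of NF-kB and inflammatory control (26 tested) had 0 calls by edgeR, 3 by DESeq2 and 2 by limma-voom, 5 unadjusted p under 0.05, and Il6ra, the IL-6 receptor, at 0.38 (adjusted p = 0.0501). Without H8, Il6ra rose by 0.43 (adjusted p = 0.0252), 1 gene of the list also rose without H1, H7 or H9, and 1 fell without H1 or H10. Klf15, a glucocorticoid-induced regulator of metabolism, was the 1 raised gene of 14 Kruppel-like factors (7.14%, against 1.06% of all genes; log2 fold change 0.49, adjusted p = 0.00982, and 0.0986 with only the WT libraries in the fit), and 2 rose without H1. The 185 ribosomal, oxidative phosphorylation and proteasome genes tested had 0 calls by the 3 tools, 7 unadjusted p under 0.05 (3.78%) and a median of 0.02 (-0.06 without H8).

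**Figure D4:**
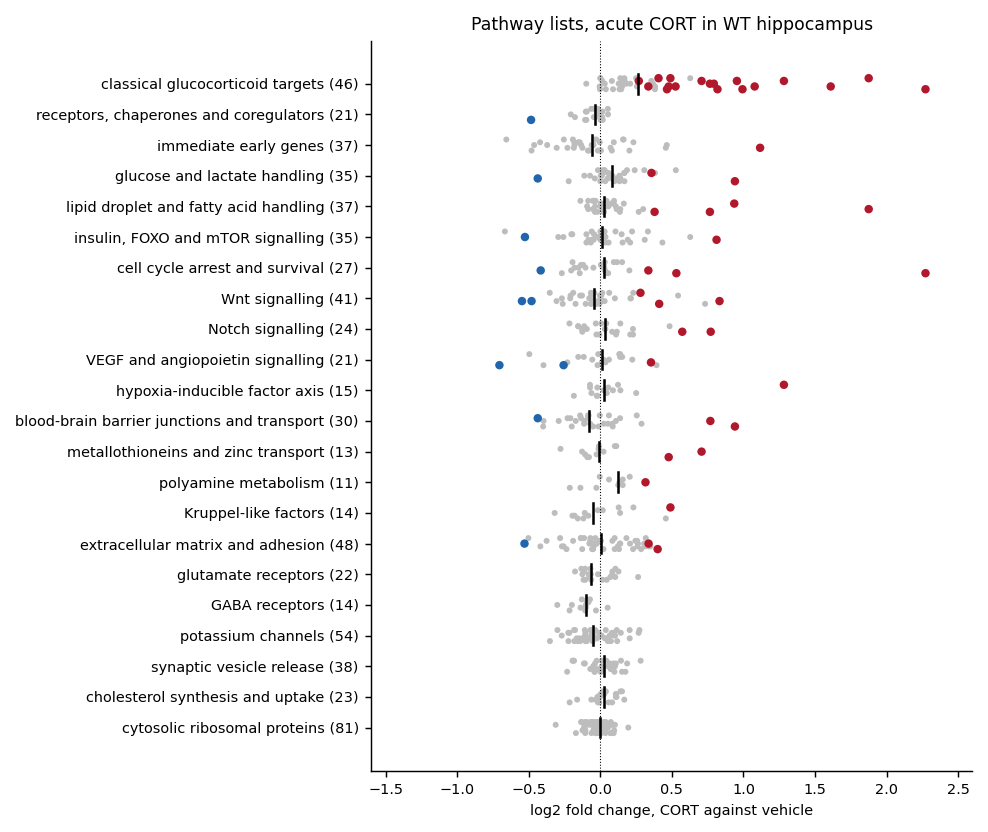
Log2 fold change of CORT against vehicle for each tested gene (points) of pathway lists with altered genes and of 6 lists with none, with the number tested in parentheses and the median as a black bar. The list of classical glucocorticoid targets has 18 raised genes and a median of 0.26, while the medians of all other lists drawn lie between -0.10 and 0.12.

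The same genes were read in the WT mice of the continuous cohort, which are other mice. These were 5 mice with a pellet of 20 mg CORT for 5 days and 4 with a vehicle pellet, with 1 further vehicle mouse left out as a technical outlier. Continuous CORT altered 436 of 14949 genes in their hippocampus (2.92%), of which 120 rose and 316 fell. With all 20 hippocampal libraries of this cohort in the fit 203 were altered, and the counts below use the 436. Of the 216 genes altered by acute CORT 214 were tested there. Of these, 176 had a change of the same sign and 48 were altered, all 48 with the same sign. The share of all genes with the same sign in both cohorts is not given here. These 48 are 22.2% of the acute and 11% of the continuous genes. Raised genes had a median log2 fold change of 0.18 and lowered genes of -0.31 in the continuous cohort. Of the classical targets, 18 of 46 rose with acute CORT and 19 of 47 with continuous CORT (40.4%, against 0.803% of all genes there). With continuous CORT 9 of 20 microglia markers fell, against 2.11% of all genes. P2ry12 (-0.55, adjusted p = 0.00129) and Cx3cr1 (-0.32, adjusted p = 0.00351) were among them. Such falls were not particular to microglia. Of oligodendrocyte precursor markers 5 of 12 fell, of mural cell markers 4 of 13 and of choroid plexus markers 3 of 10. Of 27 endothelial markers 6 fell and 1 rose, and of 20 astrocyte markers 5 fell and 6 rose. Among neuron markers 0 of 53 fell, and among oligodendrocyte markers 1 of 18.

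The acute effect differed from the continuous effect for 73 of 15024 genes (0.486%), 14 of them altered by acute CORT. The effects of Slc2a1 were 0.94 and 0.17 (difference 0.75, adjusted p = 0.000343), those of Cmtm3 1.02 and 0.23 (difference 0.78, adjusted p = 0.00039), those of Frmpd1 0.65 and -0.04 (difference 0.68, adjusted p = 0.00039), and those of Notch4 0.77 and -0.02 (difference 0.78, adjusted p = 0.00964). For these genes, which were named by their acute values, the acute effect was the larger. The reverse held for the astrocyte gene Etnppl, which rose by 0.65 with acute and 2.66 with continuous CORT (difference -2.03, adjusted p = 6.31e-05), and for Sult1a1, a sulfotransferase, with 1.08 and 1.71 (difference -0.65, adjusted p = 0.0189). Fam107a had 0.27 and 0.96 (difference -0.70, adjusted p = 1.03e-05). For Mfsd2a the effects were 0.77 and 0.72 (difference 0.03, adjusted p = 0.973), for Plin4 1.88 and 3.62 (adjusted p = 0.0837), for Kdr -0.71 and -0.38 (adjusted p = 0.634) and for Nr3c1 -0.48 and -0.36 (adjusted p = 0.763), so a difference was not shown for these. The cohorts differ in dose, route and duration, which cannot be told apart.

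**Figure D5:**
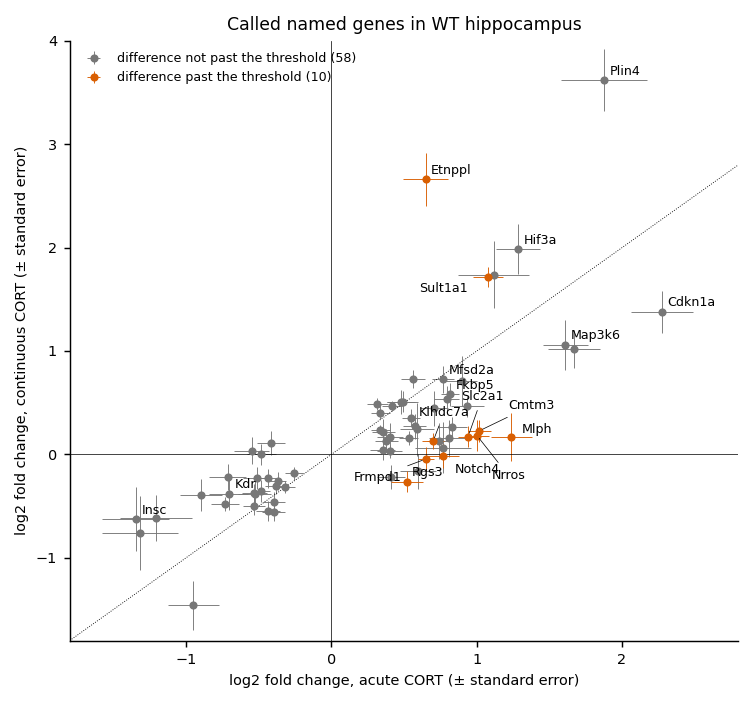
Log2 fold change with continuous CORT (vertical axis) over that with acute CORT (horizontal axis) in WT hippocampus for 68 named altered genes, with standard errors as bars and a dotted line of equal effects. Orange points are the 10 genes whose acute and continuous effects differed past the threshold, among them Etnppl above the line and Slc2a1, Cmtm3 and Notch4 below it.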

How the data were processed

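The authors prepared stranded mRNA libraries, aligned the reads to mm10 with STAR and used HTSeq-count to assign them to genes, and the deposited values are raw counts per Ensembl gene ID. The strand setting and annotation release are not given in the sources used here. Between 12.95% and 14.88% of reads in WT acute libraries were assigned to no gene and were left out. Symbols came from GENCODE M21 (GRCm38) for 52133 of 55414 IDs. A gene was tested where 3 or more replicates exceeded 20 normalized counts, and this was done with edgeR 4.0.16 in R 4.3.3 (TMM, quasi-likelihood test, Benjamini-Hochberg adjustment, threshold 0.05), with 1 coefficient for each of the 4 groups over the 24 acute libraries. The continuous cohort was fitted without 2 libraries that the study removed. The 30 pairs of WT replicates differed by more than sampling noise (lowest chi-square per degree of freedom 5.65). The labels do not say more than that each sample is a mouse of its group.

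Alternatives were DESeq2 1.42.0, limma-voom (limma 3.58.1), a surrogate variable (sva 3.50.0), other normalizations, filters and thresholds, WT libraries alone, and each mouse left out. Named genes were the 20 raised and 15 lowered with the smallest p, the 5 of each direction with the largest change, up to 4 altered genes per list or else up to 2 values, and Nr3c1, Nr3c2, Fkbp5, Tsc22d3, Slc2a1, Sgk1 and Per1. Genes named outside this rule were chosen after their values were seen: the remaining raised members of a list, genes that overlap a named gene, promoters with a match, well-known markers that did not pass (Cldn5, Ocln, Pecam1, Aqp4, Slc1a2, Gfap, Csf1r, Tmem119, Axin2, Hes1) and Sox2, Pax6, Gli3 and Wnt11. The groups, members and gene lists were chosen with earlier results of these data known. Some genes and 1 list are not reported here.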

Additional observations from a re-analysis of the deposited data

Results flagged for a closer look

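In groups of 6 mice, 1 mouse lay far from the other 5 for 13 of 140 combinations of a named altered gene and a group, by Dixon's test, which chance gives in about 1 in 20 groups. None of the 13 was H8. Among CORT mice, H11 was high for Cdkn1a (64.5 CPM, others 29.8 to 40.7) and low for Kdr (3.81, others 5.28 to 6.15), and H7 was high for Sox21 (9.21, others 6.56 to 7.33) and Rgs20 (13.8, others 10.8 to 11.5). Among vehicle mice, H1 was high for Pla2g3 (2.25, others 1.21 to 1.45), Pnpla2 (36.1, others 25.9 to 29.6), Gm11827 (0.239, others 0.0957 to 0.147) and Smox (43.6, others 34.8 to 37.8). H3 was low for Sox21 (8.46, others 11.8 to 13.7), Nr2e1 (14.1, others 16.8 to 18.2) and Fzd4 (11.5, others 13.3 to 14.3). H2 was high for Lao1 (0.435, others 0.0957 to 0.191), and H4 for Ccnd1 (52.9, others 33.3 to 37.1).

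By an interaction term in edgeR's quasi-likelihood test, the acute effect differed from the continuous effect for 10 of the 70 named altered genes. Over all genes tested, 73 of 15024 differed (0.486%). The 70 genes were named by their acute values, which also enter the difference, so the 2 counts cannot be compared directly. The acute minus continuous difference on the log2 scale was 0.75 for Slc2a1 (adjusted p = 0.000343), 0.78 for Cmtm3 (0.00039), 0.68 for Frmpd1 (0.00039), 0.81 for Nrros (0.00660), 0.56 for Klhdc7a (0.00436), 1.05 for Mlph (0.0486), 0.78 for Notch4 (0.00964) and 0.77 for Rgs3 (0.00818). It was -0.65 for Sult1a1 (0.0189) and -2.03 for Etnppl (6.31e-05). Sult1a1 overlaps Sgf29 on the opposite strand.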

How the results depend on the processing

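The 216 genes altered by acute CORT became 351 with 1 surrogate variable, 341 with limma-voom, 132 with only the WT libraries in the fit and 111 at an adjusted p under 0.01, and were 160 to 241 with each mouse left out. DESeq2 gave 283 and removal of GC and length trends 252. The 155 raised genes became 237, 252, 101 and 88 under the first 4 settings, and 119 to 187 with each mouse left out. The 61 lowered genes became 114 with 1 surrogate variable, 31 with only the WT libraries and 23 at the stricter threshold, and 40 to 72 with each mouse left out. Continuous CORT altered 203 genes instead of 436 when all 20 hippocampal libraries entered, and 43 instead of 73 genes differed between the cohorts with only the WT libraries. Of the 70 named altered genes 0 changed direction under any alternative, and 52 were altered under every alternative other than the stricter threshold, with 1 not tested with only the WT libraries. That fit lost 17 calls, Rhoj (adjusted p = 0.0842) and Rgs3 (0.0731) among them. The causes of these shifts were not tested. No paired analysis was possible because the replicate numbers of the labels only name mice in accession order. Depth limits genes near 3 counts, such as Lao1 and Gm11827 in vehicle mice.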

Other observations

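Several altered genes, most of them in no list, belong to shared families, and they were chosen after their values were seen. Of 4 fibroblast growth factor receptor genes tested 2 rose, Fgfr1 (0.30) and Fgfr3 (0.32), and 2 fell, Fgfr2 (-0.52) and the decoy receptor Fgfrl1 (-0.50). Of 5 Toll-like receptor genes tested 1 rose (Tlr7, 0.64) and 1 fell (Tlr3, -0.29), both of them sensors of RNA. Of 4 subunit genes of the volume-regulated anion channel tested 2 rose, Lrrc8a (0.63) and Lrrc8c (0.46), and 0 fell. Over all genes 1.06% rose and 0.417% fell.

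Altered genes were sometimes neighbors on the chromosome, which was noticed in the data and not tested. Of 50852 pairs of tested genes within 200 kb of each other, both genes were altered in 17, and both rose in 15 of these. The shares of altered and raised genes, squared, would give 11.1 and 5.72 pairs, and neighboring genes are not independent. Lao1 and Slc2a1 lay 139.8 kb apart, Cklf (0.90) and Cmtm3 74.5 kb, Wasf2 (0.33) and Map3k6 41.1 kb, Gm11627 (0.98) and Fzd2 24.9 kb, Gm11827 and Trp53inp1 (0.53) 29.4 kb, and Pnpla2 and Tspan4 (0.52) 14.5 kb. On chromosome 8, Atp2c2 (1.17), Klhl36 (0.66) and Crispld2 (1.01) followed each other at 104.5 and 115.4 kb. Wnt11 (-0.78) and Gm45187 (0.44) went in opposite directions, as did Fgfr2 and Htra1, whose annotations overlap.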
